A study of Homo sapiens with 4 samples.

Results

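The mRNA levels of 10 aldehyde dehydrogenases were read in 2 human colorectal cancer cell lines, HCT116 and LOVO, grown as adherent cells or as spheroids. The 10 genes were chosen by name, out of 58735 genes in the expression table. They were ALDH1A1, ALDH1A2, ALDH1A3, ALDH1B1, ALDH2, ALDH3A1, ALDH3A2, ALDH3B1, ALDH6A1 and ALDH7A1. The study used spheroids to enrich stem-like, drug-tolerant tumour cells and compared them with their attached counterparts. There was 1 library for each of the 4 conditions, the adherent cells and the spheroids of each line. Every library is labelled wild type. Adherent cells were kept in RPMI-1640 with fetal bovine serum and are labelled as untreated. Spheroids formed over 2 weeks on ultralow attachment dishes, in serum-free DMEM/F12 with B27, N2, bFGF and EGF. Their labels give a treatment of 1 mg/ml without naming the agent, whereas for such spheroids oxaliplatin at 1 μg/ml is named in the text that accompanies the data. Growth form, medium and drug changed together, so their effects cannot be told apart.

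Aldehyde dehydrogenases oxidise aldehydes to carboxylic acids with NAD or NADP. The family includes enzymes that make retinoic acid from retinaldehyde, mitochondrial enzymes that clear acetaldehyde after alcohol is taken up, enzymes for the aldehydes of oxidised lipids, and enzymes of amino acid breakdown. High aldehyde dehydrogenase activity, read with a fluorescent substrate, is widely used to sort stem-like cells from colorectal and other tumours, and several members can contribute to that activity.

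Between 15483569 and 20429147 reads fell on genes in each library, and each level is an FPKM, a fragment count divided by gene length and library size. With 1 library per condition a difference has no replicate check, and the intervals given here are 95% exact intervals that cover counting error only. They take the library sizes behind the deposited FPKM as given. Relative to reads on genes, these sizes lower spheroids against adherent cells in both lines. In bulk RNA, fewer cells with a transcript and less of it per cell cannot be told apart. Most markers of colon epithelium were low or absent in the libraries labelled LOVO, though not all. Of 9 such markers, VIL1, CDX1 and CDX2 had 0 reads in both of them, and CDH1 had 13 reads in adherent cells and 1 in spheroids. VIL1, at 6 and 11 reads, and CDX1, at 1 and 0, were near absent in HCT116 too, while CDX2 had 323 and 216 reads there. EPCAM was at an FPKM of 0.93 and 1.5 there, against 85.6 and 79.3 in HCT116, and KRT19 at 14.9 and 4.85, against 808 and 543. The epithelial keratins KRT8, at 189 and 81.6 FPKM, and KRT18, at 122 and 98.8, were abundant in adherent and spheroid LOVO cells. The summed FPKM of the 9 markers was 1754 and 1288 in adherent and spheroid HCT116 cells, against 327 and 187 in the libraries labelled LOVO. That of 6 fibroblast markers was 5.60 and 16.1, against 54.0 and 72.8, with LUM at 31.4 and 50.4 and DCN at 10.4 and 9.97 in the libraries labelled LOVO, while COL1A2 was at or under 3 reads in all 4 libraries. COL1A1 held most of the HCT116 sum, at 5.51 and 15.5, against 9.89 and 6.10 in LOVO, so in spheroids it was the higher in HCT116. The summed FPKM of 3 endothelium markers was 0.254 and 0.753 in adherent and spheroid HCT116 cells, against 1.13 and 7.84 in LOVO, where PECAM1 went from 5 reads to 992 (FPKM 0.036 and 6.35). VWF was the higher in HCT116, at 36 and 58 reads, against 7 and 14 in LOVO. The summed FPKM of 4 leukocyte markers was 0.843 and 0.696 in HCT116, against 0.250 and 1.97, with CD14 at 5 and 68 reads in LOVO. Whether the libraries labelled LOVO hold the colorectal line of that name was not tested, and LOVO is used here as the label only. The part of these markers in the differences between lines, and between the libraries labelled LOVO, was not tested.

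ALDH1A3 was the most abundant of the 10 in both HCT116 libraries, and ALDH3B1 in both libraries labelled LOVO. ALDH3A2 and ALDH1B1 were present at more than 12 FPKM in every library. ALDH1A1 and ALDH1A2 were close to absent in all 4. The spheroids held less of most members than the adherent cells of the same line, by less in HCT116 than in LOVO for most of them. On log2(FPKM + 1), which shrinks differences of low genes, no member passed a difference of 2. That is the fold in the study's edgeR threshold, whose p value condition was not applied here. ALDH1A1 had no FPKM ratio in LOVO, where adherent cells had no reads of it. Summed over the 10 genes, the FPKM of HCT116 was 110.07 when adherent and 91.5 as spheroids, a change of -16.9%. That of LOVO was 94.0 when adherent and 57.1 as spheroids, a change of -39.3%. ALDH1A3 made up 45.1% and 47.5% of this sum in adherent and spheroid HCT116 cells, but 4.89% and 3.56% in LOVO.

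Of the 3 retinaldehyde dehydrogenases among the 10, ALDH1A3 was the only one above 1 FPKM in any library. It lies between 100877714 and 100916626 on chromosome 15 (GRCh38, plus strand), with 7 GENCODE 29 transcripts, 4 of them protein-coding. In HCT116 its FPKM was 49.7 when adherent and 43.5 as spheroids, and in LOVO it was 4.60 when adherent and 2.03 as spheroids. Both HCT116 libraries were therefore far above both LOVO libraries, and in each line the spheroids were the lower. The spheroid to adherent log2 ratio was -0.19 in HCT116, with an interval from -0.25 to -0.13, and -1.18 in LOVO, with an interval from -1.41 to -0.95. The LOVO level was 10.8-fold lower than the HCT116 level in adherent cells and 21.4-fold lower in spheroids. Of its 5772 exonic bases, 1585 overlap exons of AC015712.2 on the opposite strand. The sources used here do not say whether counting used strand, so reads of the overlap cannot be assigned with certainty. AC015712.2 itself was at 2.81 FPKM in both HCT116 libraries and at 0.739 and 0.607 in adherent and spheroid LOVO cells.

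ALDH1A1, the cytosolic enzyme most often named in work on aldehyde dehydrogenase activity of stem-like cells, was close to the detection limit. HCT116 had 6 reads of it when adherent and 19 as spheroids, LOVO had 0 and 4, and the highest of these corresponds to an FPKM of 0.397. In HCT116 the spheroid to adherent log2 ratio was 1.94, with an interval from 0.56 to 3.55 that lies above 0 but rests on 25 reads. In LOVO the adherent library was at 0 reads, for which the exact interval reaches up to an FPKM of 0.0722. No difference was detectable between the LOVO libraries at this depth, since the interval of the ratio reached down to -0.77 and had no upper bound. ALDH1A2, which makes retinoic acid in the embryo, had 13, 25, 27 and 29 reads in adherent HCT116, spheroid HCT116, adherent LOVO and spheroid LOVO cells. Its highest FPKM was 0.175, so the gene was hardly expressed in any condition. The HCT116 spheroids were above the adherent cells with a log2 ratio of 1.22 and an interval from 0.20 to 2.31, and the interval in LOVO, from -0.87 to 0.75, held 0. Of the 8622 exonic bases of ALDH1A2, 563 overlap 2 genes on the opposite strand, AQP9 and AC025431.1, which had at most 1 read in any library.

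The mitochondrial enzymes ALDH2 and ALDH1B1 both take acetaldehyde as a substrate. ALDH2, on the plus strand of chromosome 12 from 111766887 to 111817529, was at 4.99 FPKM in HCT116 when adherent and at 4.03 as spheroids. LOVO held 8.35 when adherent and 3.61 as spheroids. The highest and the lowest of the 4 levels were thus the adherent and the spheroid LOVO libraries. The spheroid to adherent log2 ratio was -0.31 in HCT116, with an interval from -0.45 to -0.16, and -1.21 in LOVO, with an interval from -1.34 to -1.08. ALDH1B1, a gene of chromosome 9 with 2 annotated transcripts, was at 22.5, 20.0, 13.7 and 13.4 FPKM in adherent HCT116, spheroid HCT116, adherent LOVO and spheroid LOVO cells. In LOVO it was the member above 1 FPKM with the ratio closest to 0. Its log2 ratio was -0.17 in HCT116, with an interval from -0.28 to -0.05, and -0.03 in LOVO, where the interval from -0.17 to 0.11 held 0.

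Class 3 enzymes act on medium-chain, long-chain and aromatic aldehydes. ALDH3A2, the fatty aldehyde dehydrogenase that is lost in Sjögren-Larsson syndrome, was at 23.7 FPKM when HCT116 was adherent and 15.8 in its spheroids, and at 21.5 when LOVO was adherent and 12.3 in its spheroids. The adherent libraries of the 2 lines were close to each other, and both stood above both spheroid libraries. The spheroid to adherent log2 ratio was -0.58 in HCT116, with an interval from -0.67 to -0.50, and -0.81 in LOVO, with an interval from -0.90 to -0.72. ALDH3A2 lies on the plus strand of chromosome 17, from 19648136 to 19677598, beside ALDH3A1 on the minus strand, from 19737984 to 19748943.

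ALDH3A1, an enzyme abundant in the cornea and inducible by foreign chemicals in other tissues, was nearly confined to the libraries labelled LOVO among these 4. It had 8 and 10 reads in adherent and spheroid HCT116 cells, an FPKM of 0.10 and 0.152. In LOVO its FPKM was 6.53 in adherent cells and 2.08 in spheroids. The spheroid level in LOVO was 3.14-fold lower, a log2 ratio of -1.65 with an interval from -1.92 to -1.39, the lowest ratio of any member. In HCT116 the interval, from -0.89 to 2.14, held 0, and no difference was detectable at this depth. ALDH3B1, which oxidises aldehydes from lipid peroxidation, was at 2.30 FPKM in HCT116 when adherent, against 1.46 as spheroids, and at 26.2 in LOVO when adherent, against 14.6 as spheroids. Each LOVO library was above each HCT116 library, and within each line the spheroids were the lower. The spheroid to adherent log2 ratio was -0.65 in HCT116, with an interval from -0.94 to -0.38, and -0.84 in LOVO, with an interval from -0.92 to -0.76. ALDH3B1 is on the plus strand of chromosome 11, from 68008578 to 68029282. Its neighbour ALDH3B2, which shares 50-base stretches with it, had at most 5 reads in any library.

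Sequence upstream of a start site is shown for 3 members with unlike patterns, ALDH3B1, which was 11.4-fold higher in LOVO in adherent cells, ALDH3A2, which was close in both lines, and ALDH1A1, which was almost silent. The bases are the 250 before a RefSeq start on GRCh38.p14, 5′ to 3′ on the strand of the gene, and capitals mark a CCAAT box. ALDH3B1 lies at chr11:68008297-68008546, ALDH3A2 at chr17:19647886-19648135 and ALDH1A1 at chr9:72953054-72953303 on the minus strand.
ALDH3B1: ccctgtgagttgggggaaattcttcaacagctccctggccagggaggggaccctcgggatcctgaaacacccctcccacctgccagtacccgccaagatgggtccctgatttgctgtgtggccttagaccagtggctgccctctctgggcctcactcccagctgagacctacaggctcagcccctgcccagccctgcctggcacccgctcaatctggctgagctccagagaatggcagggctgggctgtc
ALDH3A2: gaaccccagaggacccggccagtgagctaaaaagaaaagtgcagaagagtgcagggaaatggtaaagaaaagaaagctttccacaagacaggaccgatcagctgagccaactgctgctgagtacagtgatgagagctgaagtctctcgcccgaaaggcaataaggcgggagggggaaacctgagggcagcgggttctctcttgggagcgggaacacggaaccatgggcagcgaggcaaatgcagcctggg
ALDH1A1: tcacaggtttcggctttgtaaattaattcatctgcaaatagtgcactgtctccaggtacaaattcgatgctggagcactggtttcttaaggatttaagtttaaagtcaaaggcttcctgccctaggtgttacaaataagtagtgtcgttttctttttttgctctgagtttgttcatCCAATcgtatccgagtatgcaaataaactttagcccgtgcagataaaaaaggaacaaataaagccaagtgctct
CCAAT on either strand was present in the ALDH1A1 window and in neither of the other windows shown, and 32.0% of 35116 RefSeq windows of this length hold it. TATAAA (10.7% of windows), TGACNNNGC, the core of the antioxidant response element (10.9%), and GCGTG, the core of the xenobiotic response element (32.2%), were searched on both strands and were in none of the 3. The number of CG dinucleotides was 3 for ALDH3B1, 9 for ALDH3A2 and 6 for ALDH1A1, against a median of 11 over all windows. RefSeq windows were found for 8 of the 10 members, 11 in all, and ALDH2 and ALDH3A1 had none. ALDH3A2 has another window, chr17:19648501-19648750, not shown because 225 of its bases lie in annotated exons, with 22 CG dinucleotides, 1 match to CCAAT and 1 to GCGTG. ALDH3B1 has another too, chr11:68010077-68010326, with 11 CG dinucleotides and none of these motifs. Over these 11 windows TATAAA and TGACNNNGC had no match. The ALDH1A3 window, which lies in an annotated exon and is not shown, held 38 CG dinucleotides and 2 matches to GCGTG.

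The 2 enzymes of amino acid breakdown were expressed at low to moderate levels. ALDH6A1, the methylmalonate semialdehyde dehydrogenase of valine breakdown, lies on the minus strand of chromosome 14, from 74056850 to 74084493. In HCT116 its FPKM was 2.39 when adherent and 1.36 as spheroids, and in LOVO 5.45 when adherent and 3.82 as spheroids. Spheroids were again below adherent cells, and both LOVO libraries above both HCT116 libraries. The log2 ratio was -0.81 in HCT116, with an interval from -1.09 to -0.53, the lowest ratio of any member in this line, and -0.51 in LOVO, with an interval from -0.68 to -0.35. Of the 6680 exonic bases, 670 overlap BBOF1 on the opposite strand, which had 69, 80, 61 and 216 reads in adherent HCT116, spheroid HCT116, adherent LOVO and spheroid LOVO cells. ALDH7A1, which oxidises an intermediate of lysine breakdown, lies on the minus strand of chromosome 5, from 126531200 to 126595418. It was at 4.20 FPKM in HCT116 when adherent and 4.58 as spheroids, and in LOVO at 7.55 when adherent and 5.03 as spheroids. It was the only member above 1 FPKM whose interval lay above 0 in HCT116, where the log2 ratio was 0.12, with an interval from 0.02 to 0.23. In LOVO the log2 ratio was -0.59, with an interval from -0.67 to -0.50. The processed pseudogene ALDH7A1P1, which shares sequence with it, had at most 3 reads.

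**Figure D1:**
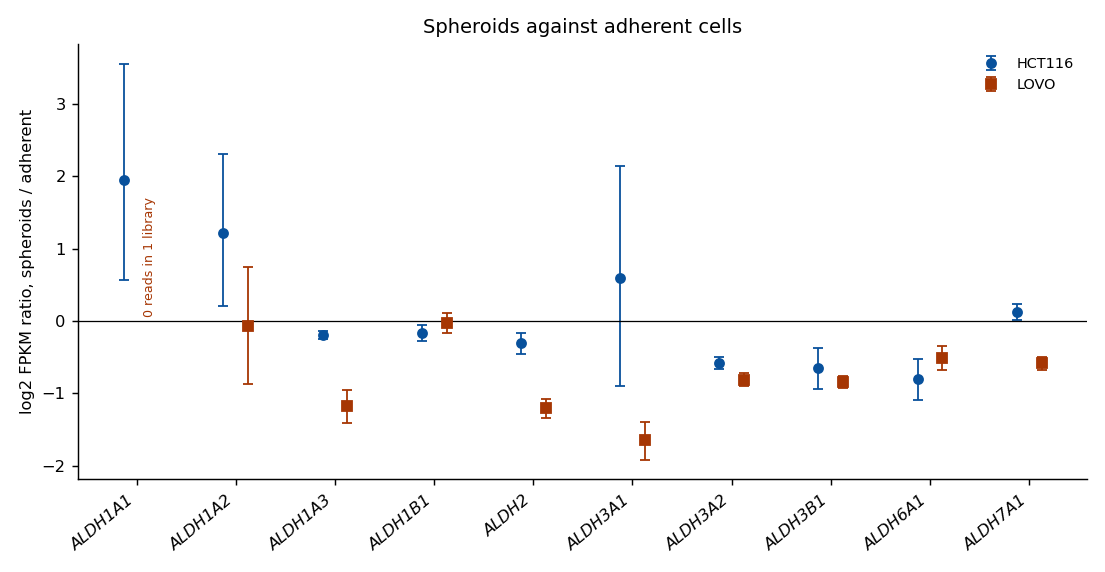
Log2 ratio of FPKM in spheroids to adherent cells for each member, in HCT116 and LOVO. Bars are 95% exact counting intervals at the deposited scaling, with 1 library per condition. In LOVO 7 intervals lie below 0 and none above, and in HCT116 6 lie below 0 and those of ALDH1A1, ALDH1A2 and ALDH7A1 above, with no ratio drawn for ALDH1A1 in LOVO because adherent cells had 0 reads.

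For counts against all genes, differences were taken as log2(FPKM + 1), in which low genes appear to change less, over the 14429 genes whose mean FPKM reached 1 across the 4 libraries. Of the 10 members 8 passed this filter, all but ALDH1A1 and ALDH1A2, and ALDH3A1 passed through its LOVO level. In HCT116 spheroids 0 of the 8 were above 2, as were 0.201% of all genes compared, and 0 were below -2, as were 0.506%. At a difference of 1, 0 members were above and 0 below, against 2.19% and 3.33% of all genes. There were 6 of the 8 below 0, against 53.4% of all genes, and the median of the 8 was -0.22 against -0.03 over all genes compared. In LOVO spheroids 0 of the 8 were above 2 (1.81% of all genes) and 0 below -2 (0.943%). No member was above 1 (8.57%), while ALDH3A1, at -1.29, and ALDH2, at -1.02, were below -1 (7.85%). ALDH1A3 at -0.88, ALDH3B1 at -0.80 and ALDH3A2 at -0.76 lay just inside that limit. With a pseudocount of 0.1 or 0.01 the number below -1 was 3, as ALDH1A3 was then at -1.14 and -1.17. All 8 members compared were below 0 in LOVO, against 53.5% of all genes, although ALDH1B1, at -0.03, moved to 0.17 with FPKM rescaled to TPM, which gives every library the same total, and to 0.03 with values centred on the median. The median of the 8 was -0.78 against -0.06 over all genes compared. The call of ALDH2 rests on the scaling, since 1 member was left below -1 with rescaling to TPM or with centring.

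The 2 lines were also fitted together with limma, in a model with a term for line. The lines then took the place of replicates, with 1 residual degree of freedom. The difference between spheroids and adherent cells over both lines was past an adjusted p of 0.05 for 0 of the 8 members and for 0 (0%) of the 14429 genes. At an unadjusted p under 0.05 there were 1545 genes, among them 1 member, ALDH3A2, with a log2 difference of -0.66 (SE 0.242) and a limma adjusted p of 0.462. With rescaling to TPM, with centring, without the trend and without the term for line, 0 members were under that limit. ALDH3A2 was lower in the spheroids of both lines.

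More genes differed between the lines than between the growth forms. In the same limma fit 3564 genes, 24.7% of those tested, differed between LOVO and HCT116 at an adjusted p under 0.05, and 3 of the 8 members were among them. ALDH1A3 was lower in LOVO by a log2 difference of -3.53 (SE 0.285, limma adjusted p = 0.00618). ALDH3B1 was higher in LOVO by 2.86 (SE 0.255, limma adjusted p = 0.00670), and both kept their direction in adherent cells and in spheroids. ALDH3A1, the third, reached the mean FPKM needed for the fit only through its level in LOVO, so it had to differ and its p is not given as a result. The number of members was 4 with rescaling to TPM, 4 with protein-coding genes only and 2 with a mean FPKM of at least 5. ALDH6A1 was higher in LOVO by 0.98 (SE 0.256), with a limma adjusted p of 0.0529, and the other 4 had adjusted p values from 0.124 to 0.551. With growth form as a term too, the 1 residual degree of freedom is how far the line difference changed between the growth forms. These p values rest on that and on a variance estimate shared over all genes, and measure no spread between replicates. The calls are lost for all 3 members when genes with low values are kept in the fit.

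**Figure D2:**
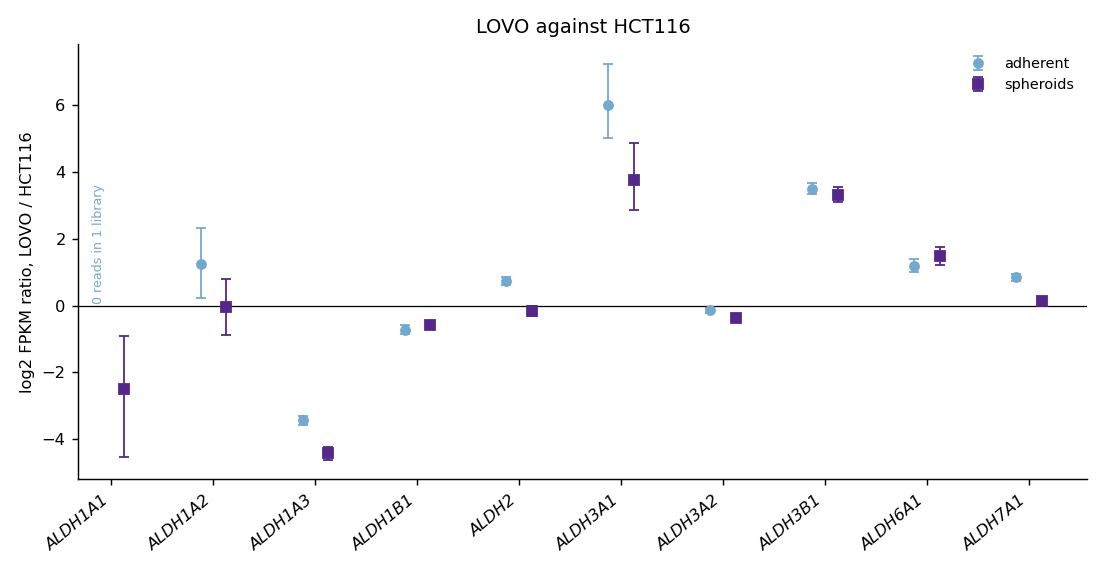
Log2 ratio of FPKM in LOVO to HCT116 for each member, in adherent cells and in spheroids, with 95% exact counting intervals and 1 library per condition. ALDH3A1 and ALDH3B1 lie above 3 in both forms and ALDH1A3 below -3, and ALDH2 changes side between the forms.

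Taken form by form, on the log2(FPKM + 1) scale, ALDH3B1 was above 2 in adherent cells at 3.04, against 5.26% of all genes, and ALDH1A3 was below -2 at -3.18, against 5.59%. ALDH3A1 was at 2.78, but it was compared only through its LOVO level, so this is not given as a result. In spheroids ALDH3B1 was above 2 at 2.67 (5.68% of all genes) and ALDH1A3 below -2 at -3.88 (4.71%), while ALDH3A1 was at 1.42. ALDH7A1 was higher in LOVO by 0.72 in adherent cells and by 0.11 in spheroids. ALDH2 was higher in LOVO by 0.64 in adherent cells and lower in spheroids, at -0.13, a value that turned to 0.07 with rescaling to TPM. ALDH1B1 was lower in LOVO at -0.68 in adherent cells and -0.55 in spheroids, and ALDH3A2 at -0.14 and -0.34. The spheroid and line comparisons share libraries and are not independent.

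The order of members within a library depends on the length that reads are divided by. The deposited length is the union of all annotated exons, and for ALDH7A1, with 37 transcripts, this is 17970 bases, 3.62 times the length of its principal transcript. Per principal transcript ALDH7A1 was at 15.2 and 16.6 FPKM in adherent and spheroid HCT116 cells and at 27.3 and 18.2 in LOVO, where it was the third of the 10 in both libraries. ALDH1A3, at 73.1 and 64.0 in HCT116, and ALDH3B1, at 62.4 and 34.8 in LOVO, stayed first on either length. ALDH1B1 was above ALDH3A2 in both spheroid libraries by the deposited length, at 20.0 against 15.8 in HCT116 and 13.4 against 12.3 in LOVO. Per principal transcript it was below, at 20.6 against 26.0 in HCT116 and 13.8 against 20.1 in LOVO. FPKM ratios of 1 gene between libraries do not depend on this length.

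Among the 14429 genes, those with the profile over the 4 libraries most like that of ALDH1A3 were EZR, which codes for the membrane linker ezrin, MIR3189 and LINC02331. Their Euclidean distances on the log2(FPKM + 1) scale, after removing each gene's mean, were 0.251, 0.321 and 0.394. For ALDH3B1 they were B4GALT1, a galactosyltransferase, at 0.209, TFAP2A, a transcription factor, at 0.262, and DUT, a dUTP pyrophosphatase, at 0.306. For ALDH3A1 they were LINC01693 at 0.121, LINC00958 at 0.134 and HOXA11 at 0.149. With 4 libraries, many genes can share such a profile.

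The genes around these enzymes were read in the same way. Of the 9 other aldehyde dehydrogenases of the human genome, 5 were compared, with medians of -0.12 in HCT116 and -0.67 in LOVO. In each line 4 of the 5 were lower in spheroids, against 53.4% of all genes in HCT116 and 53.5% in LOVO. They were not the same 4, since ALDH5A1 was at 0.01 in HCT116 and ALDH18A1 at 0.10 in LOVO. ALDH16A1 was lower in HCT116 only by -0.02, and the interval of its ratio, from -0.30 to 0.23, held 0. ALDH9A1, which acts on aminoaldehydes, was at 19.5 FPKM in adherent and 11.6 in spheroid HCT116 cells, and at 48.4 and 18.6 in LOVO, a log2 difference of -0.70 and -1.33. ALDH4A1, of proline breakdown, differed by -0.49 and -0.67. ALDH18A1, of proline synthesis, differed by -0.12 in HCT116. ALDH5A1, the succinate semialdehyde dehydrogenase, was below -1 in LOVO at -1.59, from 14.5 to 4.16 FPKM.

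Of 20 genes of the retinoic acid pathway 13 were compared. In HCT116, 1 was above 1 (2.19% of all genes) and 0 were below -1 (3.33%). The 1 above was CYP26B1, which degrades retinoic acid, at 1.00, from 9.41 to 19.9 FPKM. In LOVO 2 were above 1 (8.57% of all genes) and 1 was below -1 (7.85%). Those above were CRABP2, a carrier of retinoic acid, at 1.86, and CYP26B1 at 1.13, from 7.91 to 18.5 FPKM. The 1 below was DHRS4, a retinal reductase, at -1.13. DHRS4 was at -0.71 in HCT116, and DHRS3, another retinal reductase, at 0.69 in HCT116 and -0.75 in LOVO. RARB, a retinoic acid receptor, and STRA6, which takes up retinol, did not reach the mean FPKM needed and are named after their values were seen. In LOVO RARB had 3 reads in adherent cells and 163 in spheroids, an FPKM of 0.045 and 2.19, and STRA6 had 2 and 116 reads. CRABP2 was at 201 FPKM in adherent and 241 in spheroid HCT116 cells, against 3.09 and 13.9 in LOVO. The list medians were 0.01 in HCT116 and 0.02 in LOVO.

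Of 11 genes of alcohol and acetaldehyde metabolism 3 were compared. In HCT116 none was above 1 (2.19% of all genes) or below -1 (3.33%). CAT, catalase, was at -0.14, ACSS2 at 0.12 and ADH5, which oxidises formaldehyde bound to glutathione, at -0.08. In LOVO ACSS2, which makes acetyl-CoA from the acetate that ALDH2 produces, was at 6.74 FPKM in adherent cells and 181 in spheroids, a log2 difference of 4.56. CAT and ADH5 were at -0.69 and -0.68. Of 12 genes of valine and lysine breakdown 11 were compared, and 7 were below 0 in HCT116 (53.4% of all genes) and 10 in LOVO (53.5%), with medians of -0.13 and -0.56. BCAT2, the mitochondrial branched-chain aminotransferase, was below -1 in both lines, at -1.25 and -1.06. BCAT1, the cytosolic enzyme, was at -2.16 in LOVO and DLD, a subunit of the branched-chain ketoacid dehydrogenase, at -1.03. HIBADH, of valine breakdown, was at -0.57 and AADAT, of lysine breakdown, at 0.44 in HCT116.

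The 9 genes listed as aldehyde reductases, AKR and CBR genes whose substrates were not examined here, were all compared. In LOVO 5 of the 9 were above 1 (8.57% of all genes) and 0 below -1 (7.85%), with a median of 1.14. AKR1B1, aldose reductase, was at 165 FPKM in adherent and 3424 in spheroid LOVO cells, a log2 difference of 4.37. AKR1B10 was at 3.09 and AKR1C1 at 2.75. AKR1C1, AKR1C2 and AKR1C3 are close copies of each other, and reads could be split among them. In HCT116 1 of the 9 was above 1 (2.19% of all genes), AKR1B1 at 1.34, from 17.3 to 45.4 FPKM. AKR7A2 was at -0.88 and AKR1C3 at 0.53. AKR1B10, AKR1C1 and AKR1C2 were under 1 FPKM in both HCT116 libraries, and CBR1 had 0 reads. These genes were compared only through LOVO, so the added 1 kept their HCT116 differences small. AKR1C2, at 21 and 36 reads, was at 0.20, although its log2 FPKM ratio was 1.06. The list median of 0.03 was the value of AKR1C1, at 41 and 38 reads, and is no measure of the list in HCT116.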

How the data were processed

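RNA was read in 4 libraries, 1 per condition, prepared with the SMARTER mRNA-Seq kit. The authors deposited 1 FPKM value per gene and library. The aligner and counter are not given in the sources used here, and the study's methods name edgeR for its differential expression. The submitters' processing notes list the mouse builds GRCm38 and mm10, whereas all 58735 gene identifiers match the human GENCODE 29, and the position and length of all 10 members are those of GENCODE 29 on GRCh38. FPKM times gene length was a whole multiple of a step for 100% of values above 0 (tolerance 0.01), which gave the reads. Reads on genes ranged from 15483569 to 20429147, and 3 reads are worth 0.147 to 0.179 FPKM over 1 kb of gene. The FPKM carry a scaling, since the library sizes behind them were 0.907 to 1.09 times these reads. The factor was 0.998 in adherent and 1.09 in spheroid HCT116 cells, and 0.907 and 1.05 in LOVO. Relative to reads on genes, the scaling thus lowered spheroids against adherent cells in both lines, and more in LOVO. Counting intervals do not cover this, and those that end near 0 can depend on it. Reads on genes were not used as the library size in any alternative.

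Differences are on log2(FPKM + 1), over the 14429 genes whose mean FPKM reached 1. A count means past a log2 difference of 2, the fold in the study's edgeR threshold, or 1. The p value condition of that threshold was not applied. No test was run within a line, since there was 1 library per condition. Ratios of FPKM carry exact Clopper-Pearson intervals from the reads. limma 3.58.1 (R 4.3.3, trended, Benjamini-Hochberg adjustment over all genes tested) was fitted over the 4 libraries with form and line as terms. No source says whether libraries of a line came from separate cultures. The script was tested on simulated data. Alternatives were other pseudocounts, filters, scalings and limma settings, and, added after seeing the data, the length of the APPRIS principal transcript. All 10 members are named. Of each list of related genes, the counts and the 3 genes with the largest absolute difference in each line are named. CRABP2 in HCT116, DHRS3, RARB and STRA6 in LOVO, and the cell type markers given by name were added after their values were seen. So were AKR1B10, AKR1C1, AKR1C2, CBR1, ALDH5A1 and ALDH16A1 in HCT116, and ALDH18A1 in LOVO. Nearest profiles are given for the 3 members with the widest range. The members and lists were chosen with earlier results of these data known. Promoters are from RefSeq on GRCh38.p14. Protein sequences were not used here.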

Additional observations from a re-analysis of the deposited data

Results flagged for a closer look

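ALDH7A1, of lysine breakdown, lay on opposite sides of 0 in the spheroids of the 2 lines. It was higher in HCT116 spheroids than in adherent cells, by 0.10 on the log2(FPKM + 1) scale, and lower in LOVO spheroids, at -0.50, and the counting intervals of both ratios left out 0. The LOVO difference minus the HCT116 difference was -0.60. With 1 library per condition this difference was not tested.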

How the results depend on the processing

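Of the values of single members under the alternatives, 208 moved by less than the average distance from the ratio to the ends of its counting interval. The other 40 moved by more, and none of those past 1 turned in direction. The 208 include all values with no filter, a mean FPKM of at least 5 or protein-coding genes only. Those were fixed in advance, since a filter changes which genes are compared and not the value of a gene. The number of members below -1 in LOVO spheroids, 2, became 1 with a mean FPKM of at least 5, with rescaling to TPM and with centring, and 3 with a pseudocount of 0.1 or 0.01. In adherent cells, the number more than 2 higher in LOVO was 2, with ALDH3A1 among them, which was compared only through its LOVO level. That number became 1 with a mean FPKM of at least 5, because ALDH3A1 was then not compared. In spheroids that number, 1, became 2 with a pseudocount of 0.1, with one of 0.01 and with rescaling to TPM. The number of members that differed between lines in limma, 3, became 0 with no filter on low values, where 58735 genes were tested, 0 genes passed, 6918 had an unadjusted p under 0.05 and the lowest adjusted p of a member was 0.284. It was 4 with rescaling to TPM or protein-coding genes only, and 2 with a mean FPKM of at least 5. Rescaling to TPM moved the median of all genes by 0.15 in LOVO spheroids and by 0.22 between lines in spheroids, and a mean FPKM of at least 5 moved it by -0.16 in LOVO spheroids and by 0.11 between lines in adherent cells. Dividing by the length of the principal transcript, an alternative chosen after seeing the data, moved 28 of 40 levels beyond their counting interval. No paired analysis was possible because the labels give no replicate numbers to pair, beyond the term for line that limma already holds, without which 163 genes in place of 1545 had an unadjusted p under 0.05 between growth forms. Leaving out a library was not run, since limma would have no residual degrees of freedom. Depth limits ALDH1A1 and ALDH1A2, and ALDH3A1 in HCT116.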
